A study of Mus musculus with 41 samples.

Results

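Of the 16358 regions of dimethylated lysine 4 of histone H3 (H3K4me2) called on chromosomes 1 to 19 in LSD1n WT neurons before KCl (0 h), 2981 lay apart from both H3K4me1 and RNA polymerase II (Pol II). That is 18.2% (95% exact Clopper-Pearson interval 17.6 to 18.8). The rule asked that a region share no base with the H3K4me1 regions of the same genotype at 0 h, nor with the sites of either Pol II list at 0 h. The whole H3K4me2 list held 16545 regions, and the lists of the series 488881 entries in all. The other H3K4me2 regions fell into 3 classes: 3674 overlapped H3K4me1 but no Pol II, 4464 overlapped Pol II but no H3K4me1, and 5239 overlapped both. The 2981 regions were thus chosen by the called positions of H3K4me2, H3K4me1 and Pol II at 0 h, and the absence of H3K4me1 and Pol II there is no finding about them.

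The cells were mouse primary cortical neurons cultured for 10 days and placed in 55 mM KCl for 0 h or 1 h, a bath that depolarizes neurons. H3K4me2, H3K4me1, H4K20me1, H3K36me3 and Pol II were mapped by chromatin immunoprecipitation and sequencing in LSD1n WT neurons, and all but H3K4me2 also in LSD1n KO neurons, at both times. An antibody to LSD1 was used on wild type neurons at 0 h and 1 h, on LSD1n WT neurons at 0 h, and on LSD1n KO neurons whose labels give no KCl time. Neurons of the genotypes R26/LSD1n and R26/LSD1c were immunoprecipitated at both times through the Flag tag of the LSD1n or LSD1c they carry, so these sites report tagged proteins. What drives the tagged proteins, the age of the mice and whether cultures were pooled are not given in the sources used here.

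Methylation of H3K4 marks regulatory DNA: H3K4me1 is typical of enhancers, while H3K4me2 spans both enhancers and the flanks of promoters. LSD1 (KDM1A) is a demethylase that removes methyl groups from mono- and dimethylated H3K4. LSD1n is its neuronal splice form with a short extra exon, and LSD1c the canonical form. H4K20me1 is a mark of broad stretches, often along transcribed genes, and H3K36me3 accompanies elongating Pol II.

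Each group was represented by 1 list, except H4K20me1 in LSD1n WT at 1 h with 2, so no test between groups was run. Bracketed ranges are 95% exact Clopper-Pearson intervals, which cover counting error only and treat regions as independent. Libraries held 6990017 to 34859557 tags, and both H3K4me2 libraries were the shallowest, at 9418008 tags (0 h) and 6990017 tags (1 h). The genotype written inside all 4 Pol II lists is the opposite of their labels, so Pol II at 1 h is given mainly as overlap with either list. No mm9 gene annotation or genome was used here, so regions are given by position, and no gene or sequence is named.

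The 2981 regions were narrow. Their widths ran from 501 to 7219 bp with a median of 629 bp, and the middle of the distribution spanned 501 to 847 bp (25th to 75th percentile). Of them, 1422 (47.7%) had exactly 501 bp, the width of a single called peak that was not joined to another, and 574 (19.3%) were wider than 1000 bp. Median widths in the other classes were 655 bp with H3K4me1, 1390 bp with Pol II and 1885 bp with both. A wider region has more bases with which to touch another list, so the rule itself favours narrow regions. In the deposited list, which is ordered largely by width, the median place of the 2981 regions was at 77.5% of the list, against 24.6% for regions with both.

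**Figure D1:**
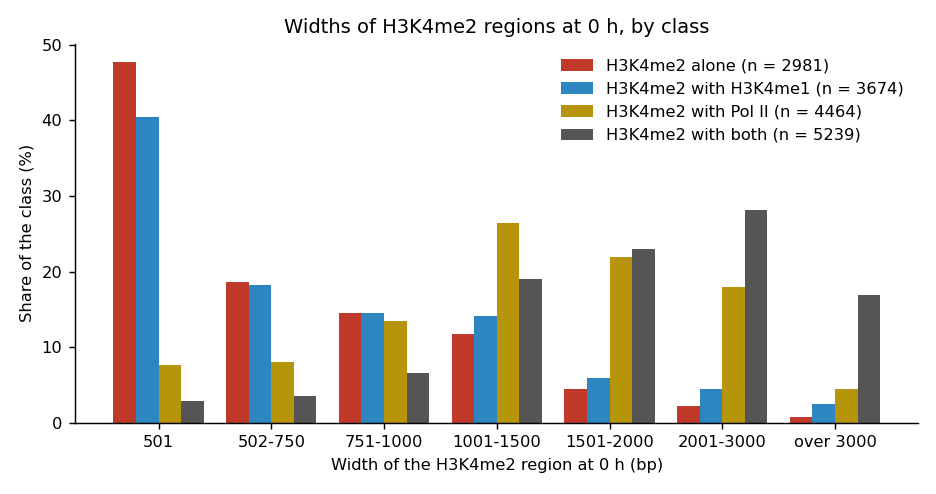
Share of each class of H3K4me2 regions at 0 h (y axis, %) in each width class (x axis, bp). Bars stand for the 4 classes: of the regions with neither H3K4me1 nor Pol II 47.7% have 501 bp, and of those with both 2.90%.

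The regions were spread over all 19 chromosomes. They made up 15.3% (13.2 to 17.6) of the H3K4me2 regions of chromosome 4 and 26.7% (23.4 to 30.1) of those of chromosome 13, the lowest and the highest share. Together they covered 2.35 Mb of the 23.7 Mb in H3K4me2 regions.

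Many of them lay close to what the rule had kept out. The median distance to the nearest H3K4me1 region or Pol II site at 0 h was 1.28 kb, and 1378 (46.2%) had one within 1 kb. H3K4me1 was within 1 kb of 795 regions and Pol II within 1 kb of 797, with 214 regions in both counts. At the far end, 626 regions (21.0%) were 20 kb or more from both. H3K4me1 lay within 2.5 kb on 1 side of 971 regions and on both sides of 165. At the edge of the rule, 344 regions had a gap under 100 bp, with a median width of 649 bp, and 52.6% of them were called again at 1 h. Just outside it, 461 regions overlapped H3K4me1 or Pol II by up to 100 bp, with a median width of 671 bp, and 57.9% were called again. The nearest on the inside, such as chr6:82983219-82983719, abutted a peak with a gap of 0 bp, and the nearest on the outside, chr9:78328273-78329347, overlapped Pol II by 1 bp.

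After 1 h of KCl, H3K4me2 was called again at fewer than 1 in 2 of these regions. The 1 h list overlapped 1388 of 2981 (46.6%, 44.8 to 48.4), against 69.8% of all H3K4me2 regions. The share was 47.7% (46.0 to 49.3) in regions with H3K4me1, 79.2% with Pol II and 90.5% with both. Another 316 regions had no overlap at 1 h but an H3K4me2 region within 1 kb, and 1277 (42.8%) had none within 1 kb. The 1 h library is the shallower of the pair, and its part in the regions not called again was not tested.

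The share called again rose with width up to 1500 bp, with overlapping intervals beyond. Of the regions of 501 bp, 25.4% (23.1 to 27.7, n = 1422) were called again. The share was 47.9% at 502 to 750 bp, 65.05% at 751 to 1000 bp and 83.0% at 1001 to 1500 bp. It was 91.2% (n = 68) at 2001 to 3000 bp and 95.8% (n = 24) above that. In order of the deposited list, the first of 5 equal parts of the 2981 regions was called again in 84.6% and the last in 21.1%.

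Up to 1000 bp, the share in these regions lay closer to that in regions with H3K4me1 than with Pol II in each width class. Regions of 501 bp with H3K4me1 were called again in 21.9% (19.8 to 24.1), with Pol II in 50.3% (44.9 to 55.7) and with both in 49.3% (41.2 to 57.6). From 1001 to 1500 bp the regions without either had 83.0% (78.7 to 86.8), with H3K4me1 77.6%, with Pol II 79.7% and with both 88.2%. Below 1001 bp the regions without either mark had a lower share than regions with Pol II in each width class, and no difference between classes was tested.

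**Figure D2:**
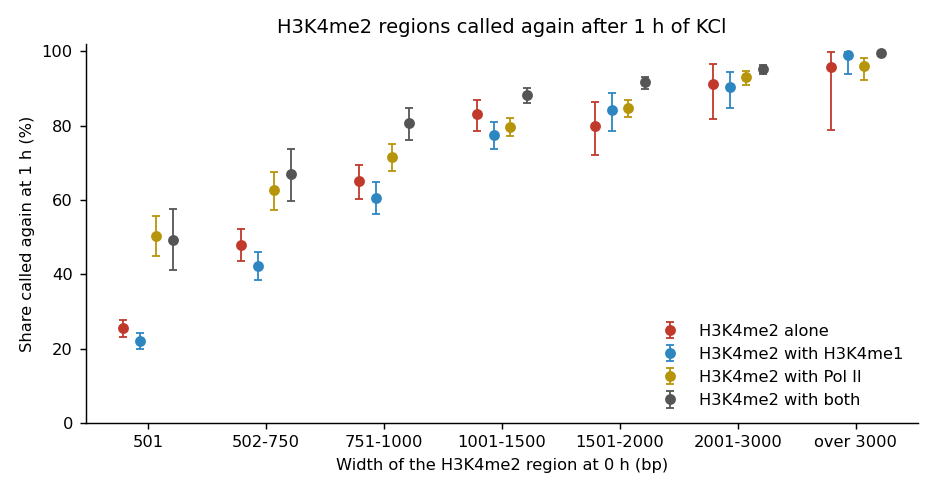
Share of H3K4me2 regions at 0 h that overlap a region of the 1 h list (y axis, %) by width at 0 h (x axis, bp) for the 4 classes; points are shares and bars 95% exact intervals. In regions with neither H3K4me1 nor Pol II the share goes from 25.4% at 501 bp to 95.8% above 3000 bp.

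Regions called again had similar median widths at both times. Their median was 791 bp at 0 h, and that of the overlapping region at 1 h was 837 bp. At 1 h, 681 were wider, 573 narrower and 134 equal. In regions with Pol II the median went from 1501 to 1041 bp, and 2364 of 3534 were narrower. The regions not called again had a median width of 501 bp.

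The 5 widest regions differed in what they carried. The widest, chr13:83875625-83882843 (7219 bp), lay 0.893 kb from H3K4me1 and 1.74 kb from Pol II. H3K4me2 at 1 h covered 56.7% of it, H4K20me1 covered 52.2% in LSD1n WT and 66.8% in LSD1n KO at 0 h, and all 4 H3K36me3 lists touched it, while it held no LSD1 site of any kind. The second, chr5:143570989-143577417 (6429 bp), was covered to 77.4% by H3K4me2 at 1 h and to 61.9% by H3K4me1 in LSD1n WT at 1 h. It too held no LSD1 site, and H4K20me1 covered 35.0% of it in LSD1n WT and 85.1% in LSD1n KO at 0 h. The third, chr2:38208926-38214772 (5847 bp), kept H3K4me2 over only 9.41% of its length at 1 h. The fourth, chr13:21260102-21265736 (5635 bp), was in all 4 LSD1 antibody lists, with 1 wild type LSD1 site at 0 h and 2 at 1 h. The fifth, chr11:23978735-23983905 (5171 bp), was covered to 63.6% by H3K4me2 at 1 h and held no LSD1 site.

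The widest region that was not called again, chr2:115895025-115898919 (3895 bp), overlapped no entry of any of the other 26 lists. Pol II lay 2.79 kb and H3K4me1 14.2 kb away at 0 h. The next, chr9:112128906-112131844 (2939 bp), was covered to 82.6% by H4K20me1 in LSD1n WT at 0 h and had no other mark than H4K20me1. The third, chr11:93906583-93909091 (2509 bp), lay 0.018 kb from H3K4me1 at 0 h and was covered to 52.4% by H3K4me1 in LSD1n WT at 1 h.

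H3K4me1 was called at many of these regions in the lists that the rule did not use. In LSD1n WT at 1 h, it overlapped 1337 regions (44.9%, 43.1 to 46.7), against 69.4% of all H3K4me2 regions. In LSD1n KO at 0 h it overlapped 760 (25.5%, 23.9 to 27.1, against 47.7%), and in LSD1n KO at 1 h 1716 (57.6%, 55.8 to 59.4, against 76.3%). Any of these 3 lists overlapped 2106 regions (70.7%, against 86.0%), and all 3 overlapped 471 (15.8%, against 40.1%). Lengths of the H3K4me1 lists ran in the same order, with 33244 regions in LSD1n KO at 0 h, 44793 in LSD1n WT at 1 h and 62945 in LSD1n KO at 1 h. The last of these libraries was also the deepest, at 34859557 tags, while LSD1n WT had 23973912 tags at 0 h and 23440511 at 1 h. In LSD1n WT the 1 h list was longer than the 0 h list, of 37204 regions, at nearly the same depth. Regions with Pol II but no H3K4me1 at 0 h, chosen for the same absence, had 52.3% with H3K4me1 in LSD1n WT at 1 h and 24.0% in LSD1n KO at 0 h.

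H3K4me1 in LSD1n WT at 1 h was centred on the regions. It covered the centre of 29.0% of them, and points 3 to 5 kb away in 5.94% on average. For the 626 regions 20 kb or more from both marks of the rule, it covered the centre of 24.3% and points 3 to 5 kb away in 0.453%. H3K4me2 at 1 h covered 30.7% of all centres and 4.05% of the distant points.

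Pol II appeared at 1 h at fewer of them. Either list overlapped 477 regions (16.0%, 14.7 to 17.4), against 64.2% of all H3K4me2 regions, a share that the rule lowers by leaving out regions with Pol II at 0 h. The list labelled LSD1n WT overlapped 279 (9.36%, against 58.5%) and the list labelled LSD1n KO 362 (12.1%, against 61.0%), with 164 regions in both (5.50%, against 55.3%). Regions with H3K4me1 at 0 h, also without Pol II at 0 h, had 19.95% (18.7 to 21.3) with either list at 1 h. Both Pol II libraries were deeper at 1 h (21641320 and 22336241 tags) than at 0 h (14622895 and 16651225), and the part of depth was not tested. Counting all times and genotypes, 751 regions (25.2%) overlapped none of the 4 H3K4me1 and 4 Pol II lists. Their median width was 501 bp, and 40.3% of them (36.8 to 44.0) were called again with H3K4me2 at 1 h.

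The LSD1 antibody found sites at more of these regions before KCl than after. At 0 h, wild type LSD1 sites overlapped 869 regions (29.2%, 27.5 to 30.8), against 49.4% of all H3K4me2 regions. At 1 h they overlapped 355 (11.9%, 10.8 to 13.1), against 44.1%. At 0 h alone 666 regions had a site, at 1 h alone 152, and at both times 203. Over all H3K4me2 regions these shares were 18.7%, 13.4% and 30.7%. The ratio of the 1 h to the 0 h number was 0.409. It was 0.806 in regions with H3K4me1 (845 and 681 regions), 0.941 with Pol II and 0.997 with both. For all sites of both lists, 22663 and 18457, it was 0.814. Titles put both libraries under the same prefix. The 1 h library was shallower, with 19266695 tags against 24377237.

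The 2 other LSD1 antibody lists put values beside this. In LSD1n WT neurons at 0 h, with 17993780 tags and 13400 sites, LSD1 overlapped 659 regions (22.1%, 20.6 to 23.6, against 40.1%). In LSD1n KO neurons, with 31532169 tags and 13709 sites, it overlapped 646 (21.7%, 20.2 to 23.2, against 37.0%). Both shares exceed that of the wild type at 1 h, although both lists are shorter. Both libraries also differ from the wild type pair in genotype label and title prefix, so these cannot be told apart from KCl time. Each wild type list was also limited to its first 13400 sites in deposited order. Every score is 1, so these sites could not be chosen by strength. The shares were then 22.3% (20.8 to 23.8) at 0 h and 8.39% (7.42 to 9.44) at 1 h. In regions with H3K4me1 these shares were 15.5% and 13.9%. With 1 library at each time the KCl effect on LSD1 could not be tested against the spread between cultures.

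LSD1 at 0 h was most frequent at regions of middle width. It overlapped 16.2% of regions of 501 bp, 31.3% at 502 to 750 bp, 43.3% (38.6 to 48.1) at 751 to 1000 bp and 54.0% (48.6 to 59.4) at 1001 to 1500 bp. Above that it was lower, with 35.3% (24.1 to 47.8, n = 68) at 2001 to 3000 bp and 29.2% (12.6 to 51.1, n = 24) beyond. Regions with H3K4me1 had 25.4% (21.8 to 29.4) at 751 to 1000 bp and 35.8% (31.6 to 40.1) at 1001 to 1500 bp. At 501 bp they had 13.8% (12.1 to 15.7), an interval that overlaps that of the regions without either mark (14.4 to 18.3). At 2001 to 3000 bp they had 39.4% (31.9 to 47.3), the higher of the 2 shares, with overlapping intervals. At 1 h, over all widths, regions with H3K4me1 had the higher share, 18.5% (17.3 to 19.8) against 11.9% (10.8 to 13.1). At 501 bp the shares at 1 h were 13.2% (11.5 to 15.0) and 7.88% (6.53 to 9.4), with intervals apart. They were 16.7% and 11.2% at 502 to 750 bp, and 26.9% and 19.5% at 1001 to 1500 bp. At 751 to 1000 bp they were 19.96% (16.6 to 23.6) and 14.1% (11.0 to 17.8), with overlapping intervals, and at 2001 to 3000 bp 30.3% and 30.9%.

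Many regions recurred between LSD1 antibody lists. Of the 659 regions with LSD1 in LSD1n WT, 491 (74.5%) also had it in the wild type at 0 h, and these were 56.5% of the 869. Of the 646 with LSD1 in LSD1n KO, 493 (76.3%) had it in the wild type at 0 h, and 418 were shared by LSD1n WT and LSD1n KO. For LSD1n WT the share also in the wild type at 0 h was 68.0% in regions with H3K4me1, 82.8% with Pol II and 84.3% with both. For LSD1n KO it was 74.9%, 85.7% and 87.5%. Recurrence was thus lower here than in the classes with Pol II. Any of the 4 lists overlapped 1251 regions (42.0%, against 68.9% of all H3K4me2 regions). All 4 overlapped 103 (3.46%, against 17.4%), and 1730 (58.0%, against 31.1%) had no LSD1 antibody site. The median distance from the region's centre was 226 bp for the 901 wild type sites at 0 h. As 47.7% of the regions had only 501 bp, this distance does not show a central position within them.

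Sites of the tagged isoforms were rare here. Flag-LSD1n overlapped 25 regions at 0 h (0.839%, 0.543 to 1.24, against 3.42%) and 116 at 1 h (3.89%, 3.23 to 4.65, against 21.9%). Flag-LSD1c overlapped 92 at 0 h (3.09%, 2.495 to 3.77, against 18.8%) and 112 at 1 h (3.76%, 3.10 to 4.50, against 27.0%). As a whole the Flag-LSD1n lists held 940 (0 h) and 4438 (1 h) sites, and the Flag-LSD1c lists 3922 and 5480. Intervals of the isoforms at 1 h overlap. Regions with H3K4me1 had 2.31% (1.85 to 2.85) with Flag-LSD1n at 1 h and 3.70% (3.12 to 4.36) with Flag-LSD1c.

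Either isoform at any time was present at 273 regions (9.16%, against 41.0% of all H3K4me2 regions), and both isoforms at 1 h at 26 (0.872%, against 13.0%). Of the 116 regions with Flag-LSD1n at 1 h, 72 (62.1%, 52.6 to 70.9) had a wild type LSD1 site at 0 h and 24 (20.7%, 13.7 to 29.2) had one at 1 h. For Flag-LSD1c at 1 h the numbers were 69 (61.6%) and 32 (28.6%) of 112. Among all 2981 regions the shares with wild type LSD1 were 29.2% at 0 h and 11.9% at 1 h, so both tagged isoforms went with higher shares of either list. Width was not held fixed here. Flag-LSD1n at 1 h overlapped 1.97% of regions of 501 bp and 8.89% of those above 1000 bp. Wild type LSD1 at 0 h overlapped 16.2% and 48.4% of them. Regions with Flag-LSD1n, Flag-LSD1c and wild type LSD1, at any time, numbered 29 (0.973%, against 15.2%). The widest of these, chr16:18233125-18236193 (3069 bp), had an LSD1 antibody site in the wild type at 1 h and in LSD1n KO, and 1 site of each tagged isoform at 1 h. It overlapped 15 of the other 26 lists. The next widest were chr9:72122919-72125093 (2175 bp) and chr9:30750044-30752150 (2107 bp).

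**Figure D3:**
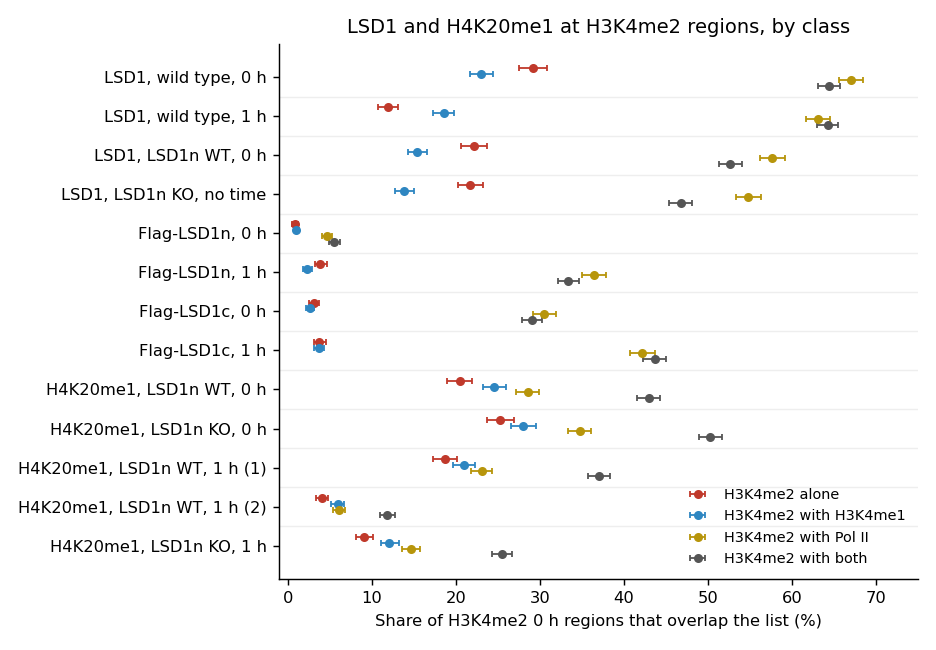
Share of H3K4me2 regions at 0 h (x axis, %) that overlap each LSD1, Flag and H4K20me1 list (rows) in the 4 classes; points are shares and bars 95% exact intervals. Regions with neither H3K4me1 nor Pol II have 29.2% with wild type LSD1 at 0 h and 11.9% at 1 h, and under 4% with each Flag list.

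H4K20me1 overlapped about 1 in 5 of the regions at rest. In LSD1n WT at 0 h it overlapped 609 (20.4%, 18.99 to 21.9, against 30.8%) and in LSD1n KO at 0 h 753 (25.3%, 23.7 to 26.9, against 36.5%). Regions with both H3K4me1 and Pol II had 42.9% in LSD1n WT at 0 h. In LSD1n WT at 1 h the pair of lists overlapped 556 (18.7%, against 26.3%) and 121 (4.06%, against 7.52%), a mean of 11.4% ± 10.3 (SD, n = 2). The difference between 0 h and 1 h in LSD1n WT is smaller than this spread, and the labels do not say whether the pair came from separate cultures. In LSD1n KO at 1 h the list overlapped 271 (9.09%, 8.08 to 10.2, against 16.5%). The H4K20me1 lists differed in length, with 25429 regions in LSD1n WT and 36291 in LSD1n KO at 0 h. At 1 h the pair of LSD1n WT lists held 28453 and 2844 regions, and the LSD1n KO list 9022. What list length contributes to these shares and to the SD was not tested. By title prefix, the LSD1n KO list at 1 h and the second LSD1n WT list at 1 h form a set of their own, apart from both 0 h lists. The first LSD1n WT list at 1 h has another prefix again. KCl time and prefix cannot be told apart for LSD1n WT or for LSD1n KO.

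The H4K20me1 regions that overlapped had larger median widths than the 2981 regions, whose median was 629 bp. The overlapping H4K20me1 regions had a median width of 3077 bp in LSD1n WT and 5305 bp in LSD1n KO at 0 h. They enclosed the H3K4me2 region whole in 318 of 609 cases and in 447 of 753 cases. At 1 h the medians were 3311 bp and 813 bp in the pair of LSD1n WT lists and 1249 bp in LSD1n KO. Enclosed whole were then 276 of 556, 19 of 121 and 96 of 271. Around the centres H4K20me1 in LSD1n WT at 0 h stood only 1.91 times above its level 3 to 5 kb away, 15.7% against 8.22%. Wild type LSD1 sites at 0 h stood 22.6 times above, 6.21% against 0.274%.

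**Figure D4:**
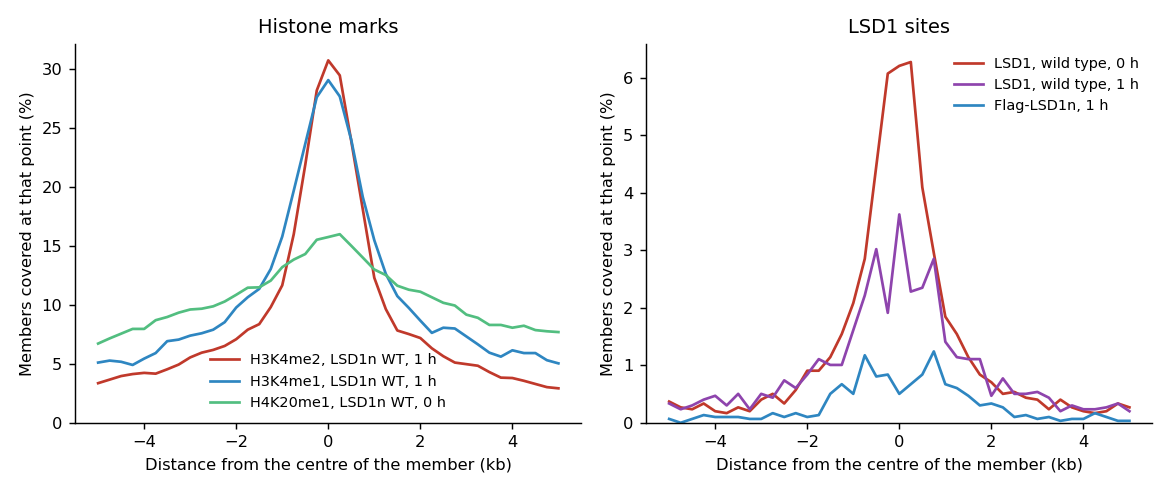
Share of the 2981 regions covered by each list (y axis, %) at points up to 5 kb on either side of the region's centre (x axis, kb), for histone marks (left) and LSD1 sites (right). H3K4me2 at 1 h covers 30.7% of centres, H4K20me1 at 0 h 15.7%, and wild type LSD1 at 0 h 6.21%.

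H3K36me3 was scarce. It overlapped 65 regions in LSD1n WT at 0 h (2.18%, 1.69 to 2.77, against 4.33%) and 44 in LSD1n KO at 0 h (1.48%, against 2.51%). At 1 h it overlapped 92 in LSD1n WT (3.09%, 2.495 to 3.77, against 5.61%) and 36 in LSD1n KO (1.21%, against 2.24%).

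The shares with LSD1 and with H4K20me1 both changed with distance from H3K4me1 and Pol II at 0 h, in different ways. Of the 709 regions under 0.25 kb from an H3K4me1 region or Pol II site at 0 h, 38.6% (35.0 to 42.3) had wild type LSD1 at 0 h. The share was 23.6% at 0.25 to 1 kb, 11.4% (8.94 to 14.2) at 1 to 5 kb and 26.7% at 5 to 20 kb. In the 626 regions at 20 kb or more it was 42.5% (38.6 to 46.5). LSD1 in LSD1n WT at 0 h went the same way, with 28.6% nearest, 9.01% at 1 to 5 kb and 31.3% farthest. LSD1 in LSD1n KO had 26.7%, 7.48% and 33.1% in these classes. The wild type at 1 h had 15.5%, 7.48% and 13.1%.

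H4K20me1 was most frequent at the distances where LSD1 was least frequent. In LSD1n WT at 0 h it overlapped 23.6% of regions under 0.25 kb, 34.9% (31.0 to 38.9) at 1 to 5 kb and 4.88% at 5 to 20 kb. At 20 kb or more only 5 of 626 regions (0.799%, 0.260 to 1.85) had it, and 14 of 626 in LSD1n KO. Regions far from H3K4me1 and Pol II carried LSD1 in many cases and almost never H4K20me1.

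Within each of 3 width classes, wild type LSD1 at 0 h was least frequent at 1 to 5 kb. Regions of 501 bp had wild type LSD1 at 0 h in 22.5% (17.9 to 27.6) nearest, 7.17% (4.49 to 10.8) at 1 to 5 kb and 23.4% (18.6 to 28.8) farthest. Regions of 502 to 1000 bp had 47.0%, 12.9% and 48.4%. Regions wider than 1000 bp had 55.7% (47.6 to 63.6), 20.2% (13.1 to 28.9) and 76.4% (67.9 to 83.6, n = 123). Median widths of the 5 distance classes ran from 501 bp at 5 to 20 kb to 643 bp under 0.25 kb.

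**Figure D5:**
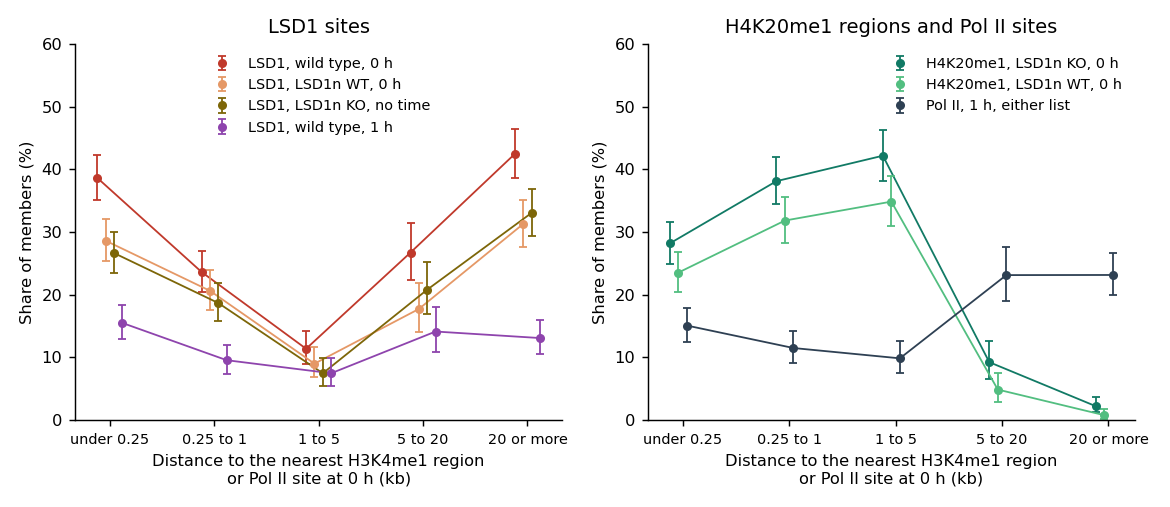
Share of the regions (y axis, %) that overlap LSD1 sites (left) and H4K20me1 regions or Pol II sites at 1 h (right) by distance to the nearest H3K4me1 region or Pol II site at 0 h (x axis, kb); points are shares and bars 95% exact intervals. Wild type LSD1 at 0 h is at 38.6%, 11.4% and 42.5% under 0.25 kb, at 1 to 5 kb and at 20 kb or more, and H4K20me1 in LSD1n WT at 23.6%, 34.9% and 0.799%.

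The share called again with H3K4me2 at 1 h changed less with distance. It was 52.1% under 0.25 kb, 41.0% at 1 to 5 kb, 35.0% at 5 to 20 kb and 52.7% at 20 kb or more. Pol II at 1 h overlapped 15.1% of the nearest, 9.86% at 1 to 5 kb and 23.2% (19.9 to 26.7) of the farthest.

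Regions with wild type LSD1 at 0 h were called again more often than those without, 65.5% (62.2 to 68.6, n = 869) against 38.8% (36.7 to 40.9, n = 2112). At 501 bp the shares were 41.1% and 22.3%, and above 1000 bp they were 84.5% and 83.1%. The shares differed by more than their intervals at 501 bp, and by less above 1000 bp. Pol II at 1 h was also more frequent where LSD1 had been, 29.6% (26.6 to 32.7) against 10.4% (9.15 to 11.8). This held at 501 bp (15.2% and 6.05%), at 502 to 1000 bp (26.9% and 13.6%) and above 1000 bp (45.0% and 21.3%). It also held under 5 kb (22.4% and 8.86%) and at 5 kb or more from H3K4me1 and Pol II at 0 h (39.2% and 14.0%). H3K4me1 in LSD1n WT at 1 h differed less, 48.8% with LSD1 and 43.2% without. Regions with H3K4me1 at 0 h went the same way. Those with wild type LSD1 at 0 h were called again in 65.3% (n = 845), against 47.7% of that whole class. They had Pol II at 1 h in 33.6%, against 19.95% of the class. For the share called again, regions with LSD1 and their whole class had 80.9% and 79.2% with Pol II, and 91.4% and 90.5% with both. Counted in this way the regions without either mark had 65.5% and 46.6%. A whole class includes its regions with LSD1: 869 of 2981 here, 2991 of 4464 with Pol II and 3373 of 5239 with both. The sizes of these gaps therefore cannot be compared between classes. The higher shares with LSD1 were thus not particular to the regions without either mark.

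With H4K20me1 the order was the other way round. Pol II at 1 h overlapped 28 of the 609 regions with H4K20me1 in LSD1n WT at 0 h (4.60%, 3.08 to 6.58), and 18.9% (17.4 to 20.6) of the others. Among regions under 5 kb from H3K4me1 or Pol II, where 585 of the 609 lay, the shares were 4.10% and 15.8%. The shares called again with H3K4me2 had overlapping intervals, 48.6% (44.6 to 52.7) with H4K20me1 and 46.0% (44.0 to 48.1) without. At 502 to 1000 bp the share was lower with H4K20me1, 46.0% (38.8 to 53.4) with and 57.7% (54.1 to 61.1) without. Intervals overlapped at 501 bp (26.7% with, 25.1% without) and above 1000 bp (80.6% with, 85.3% without). Both wild type LSD1 and H4K20me1 at 0 h were at 121 regions, or 13.9% of those with LSD1 and 19.9% of those with H4K20me1. Among regions with LSD1 in the other classes, H4K20me1 overlapped 20% with H3K4me1, 28.6% with Pol II and 43.5% with both. Over whole classes it was 20.4% in the regions without either mark, 24.6% with H3K4me1, 28.5% with Pol II and 42.9% with both. The split of Pol II at 1 h by H4K20me1 was not made in the other classes.

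In all, 211 regions (7.08%) overlapped none of the other 26 lists, and 84.4% of these had 501 bp. The widest after chr2:115895025-115898919 were chr9:104472696-104474444 (1749 bp), which lay 44.3 kb from H3K4me1 and 161 kb from Pol II, and chr6:108611591-108612997 (1407 bp). Another 75 regions overlapped H3K4me2 at 1 h and no list of another target. At the other end 61 regions overlapped 10 or more lists, with a median width of 1483 bp, and no region overlapped all 8 targets. These counts were not made for all H3K4me2 regions, and the rule itself keeps the regions out of some of the 26 lists. They therefore do not show how the regions differ from other H3K4me2 regions.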

How the data were processed

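The authors deposited 27 peak lists whose unit is a genomic position: mm9 coordinates of both ends of every entry, with a score that is 1 throughout. Bowtie and HOMER are named in the submitters' processing notes, with no version. Per the file headers, HOMER joined histone peaks (size 500 bp, spacing 1250 bp) into regions. For Pol II, LSD1 and Flag the headers give sites of 200 bp spaced 500 bp apart, and a 4-fold excess of tags over the local 10 kb. The false discovery rate was 0.001, and no header names a control library. GRO-seq (10) and RNA-seq (4) samples of the 41 are not analysed here.

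Overlap meant at least 1 shared base. Shares came from Python 3.11.15 with numpy 2.4.6 and their exact intervals from scipy 1.17.1, and matplotlib 3.10.9 drew the figures. The overlap calculation was tested on simulated lists. Shares with a whole list or group of lists are mostly set beside that of all H3K4me2 regions at 0 h on chromosomes 1 to 19. Shares by distance, splits by LSD1 or H4K20me1, recurrences between lists and counts by number of lists have no such value beside them. Only 1 group has more than 1 list, so nothing was tested between groups. Groups follow the labels, and title prefixes stand for possible batches. Regions named are the widest of all, of those called again, of those not called again, of those with all LSD1 forms and of those in no other list, and those nearest the rule's edge, chromosome 18 left out. The regions and lists were chosen with earlier results of these data known. Without mm9 annotation the planned gene lists were not run. Alternatives were a 1 kb margin, all H3K4me1 and Pol II lists, 1 Pol II list, an overlap of 50%, regions above 1000 bp, leaving out regions with all 8 targets, each H4K20me1 list at 1 h, and, added after seeing the data, LSD1 lists of equal length.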

Additional observations from a re-analysis of the deposited data

Results flagged for a closer look

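H3K36me3 at the regions moved in opposite directions with KCl in LSD1n WT and LSD1n KO. From 0 h to 1 h the share rose by 0.906 percentage points in LSD1n WT (65 to 92 regions) and fell by 0.268 percentage points in LSD1n KO (44 to 36 regions). All H3K4me2 regions moved the same way, from 4.33% to 5.61% in LSD1n WT and from 2.51% to 2.24% in LSD1n KO. So did the lists as a whole, with 11530 and 17465 regions in LSD1n WT and 3685 and 3166 in LSD1n KO. Each group has 1 list, and the difference between genotypes was not tested. The LSD1n KO interval at 0 h (1.07% to 1.98%) contains the share at 1 h (1.21%).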

How the results depend on the processing

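Percentages here are shares of the regions, and an alternative counts as different where it left the 95% interval of the value reported (for H4K20me1 at 1 h, where it moved by more than the SD of 10.3). Of 70 alternative values for the 10 main results, 20 stayed and 50 moved, mostly because another set of regions or another overlap was counted. The 1603 regions with no H3K4me1 or Pol II at 0 h within 1 kb had a median width of 625 bp. They overlapped H3K4me2 at 1 h in 44.1%, wild type LSD1 at 0 h in 27.3%, Flag-LSD1n in 2.25% and Flag-LSD1c in 2.37% at 1 h. Their shares were 14.3% for H4K20me1 in LSD1n WT at 0 h, 41.0% for H3K4me1 in LSD1n WT at 1 h and 18.3% for Pol II at 1 h. The 751 regions in no H3K4me1 or Pol II list had a median width of 501 bp and shares of 40.3%, 22.6%, 4.66%, 4.66% and 26.8% for the first 5 of these lists. With wild type LSD1 at 1 h their share was 7.86%. With the Pol II list labelled LSD1n WT alone, 3393 regions qualified, with a median width of 637 bp and shares of 50.2%, 33.0%, 5.57%, 5.04% and 18.9%. Pol II at 1 h was then 23.3% and LSD1 at 1 h 14.4%. The 574 regions above 1000 bp had a median width of 1359 bp and shares of 83.8%, 48.4%, 8.89%, 10.8% and 31.4%. Their H3K4me1 at 1 h was 55.2%, Pol II at 1 h 32.8% and LSD1 at 1 h 20.9%. An overlap of 50% of the shorter interval gave 34.6%, 25.03%, 2.95%, 2.85%, 16.6%, 32.8% and 13.1%, in the order given for the 1 kb margin, and 9.79% for LSD1 at 1 h. Counting peaks within 1 kb gave 57.2%, 45.2%, 10.6%, 12.9%, 25.8%, 60.9% and 42.0%, and 29.4% for LSD1 at 1 h. Lists cut to equal length in deposited order gave 22.3% and 8.39% for LSD1 at 0 h and 1 h. In each of these settings LSD1 at 0 h exceeded LSD1 at 1 h. No region overlapped all 8 targets, so leaving such regions out changed nothing. Leaving out each H4K20me1 list of LSD1n WT at 1 h in turn gave 4.06% to 18.7%. No paired analysis was possible because no result comes from a test and all groups but 1 hold 1 list. What depth limits was not tested.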
